A study of Mus musculus with 10 samples.

Results

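The copines are a family of cytosolic proteins, and all 9 copine genes of the deposited count table, Cpne1 to Cpne9, are described here, of 24982 genes in all. The members were taken by name, but the family was selected on measured values: the counts of Cpne7, which differed between knockout and wild-type mice compared by number. Each difference between genotypes given for a copine is therefore a description and supports nothing. The RNA sequenced came from micro-dissected dentate gyri, where the granule neurons of the hippocampus lie, of male C57BL/6 mice aged 10 weeks. The 5 mice of one group were wild type and the 5 of the other were global knockouts of Fndc5, whose product is cleaved to the myokine irisin, and 1 mouse gave 1 library of 26226375 to 43802079 counts. No other allele or agent is named for either group, and the deleted part of Fndc5 is not given in the labels. The table writes symbols in capitals. CPNE6 had 18610 to 29749 counts per library, CPNE7 1678 to 4639 and CPNE8, the scarcest, 85 to 165. All 9 copines passed the filter on low counts, as did 14867 genes in all.

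A copine protein has a pair of C2 domains, which bind phospholipid membranes when calcium rises, followed by a domain related to the A domain of von Willebrand factor, through which it binds other proteins. Copines thereby move to membranes on a calcium signal. In the hippocampus the best known is Cpne6, or neuronal copine, which reaches dendritic spines when calcium enters and acts there on actin through Rac1.

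The members are paralogs, and their coding sequences show how far apart reads of one copine are from those of another. The stretch of 60 coding bases without a gap that held the most bases common to all members, 31, is printed for each, 5′ to 3′ on the coding strand, from mouse transcripts of GENCODE M21 (GRCm38). Capitals mark bases that are identical in all 9.
Cpne1: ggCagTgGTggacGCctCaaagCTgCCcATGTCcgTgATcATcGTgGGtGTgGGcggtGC
Cpne2: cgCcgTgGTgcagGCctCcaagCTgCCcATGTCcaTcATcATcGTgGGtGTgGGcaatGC
Cpne3: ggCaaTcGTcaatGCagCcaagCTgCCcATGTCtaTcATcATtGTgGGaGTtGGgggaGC
Cpne4: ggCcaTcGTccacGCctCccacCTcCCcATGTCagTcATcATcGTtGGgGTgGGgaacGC
Cpne5: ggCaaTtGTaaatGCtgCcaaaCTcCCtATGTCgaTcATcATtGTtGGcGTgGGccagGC
Cpne6: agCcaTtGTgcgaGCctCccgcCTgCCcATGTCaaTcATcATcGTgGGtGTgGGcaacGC
Cpne7: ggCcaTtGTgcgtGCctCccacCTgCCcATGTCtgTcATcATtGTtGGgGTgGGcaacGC
Cpne8: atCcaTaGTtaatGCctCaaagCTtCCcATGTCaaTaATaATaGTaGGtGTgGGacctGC
Cpne9: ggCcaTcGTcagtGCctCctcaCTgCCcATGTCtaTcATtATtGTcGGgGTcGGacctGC

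Even in this stretch every member differed from every other. Over the aligned coding sequences, 27.7% of the columns without a gap were the same in all members. By identity the family fell into 3 groups. Cpne5 and Cpne9 were 73.3% identical and Cpne5 and Cpne8 71.2%. Cpne4, Cpne6 and Cpne7 were 65.2% to 67.2% identical to one another, and Cpne1, Cpne2 and Cpne3 62.4% to 65.2%. The longest run of bases common to any 2 members was 31 (Cpne5 and Cpne6), and 0 windows of 75 bases, the length of the reads, were shared by transcripts of 2 members. A read of that length without errors therefore matched at most 1 copine among the annotated transcripts. Coding lengths ran from 1602 bases (Cpne3) to 1782 (Cpne5), and the GC content of the coding sequence from 43.5% (Cpne3) to 57.9% (Cpne7).

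The genes lie on 8 chromosomes. In GRCm38, Cpne7 lies on chromosome 8 from 123117374 to 123135182 and Cpne2 on the same chromosome from 94532990 to 94570531. Cpne6 lies on chromosome 14 (55510445 to 55517431), Cpne4 on chromosome 9 (104547286 to 105034544), Cpne5 on chromosome 17 (29155556 to 29238167) and Cpne9 on chromosome 6 (113282307 to 113305627). Cpne8 lies on chromosome 15 (90487482 to 90679432) and Cpne1 on chromosome 2 (156071842 to 156111965). Cpne3 lies on chromosome 4 (19519254 to 19570108), which also carries Fndc5. Cpne1 shares its first exons with Rbm12, an RNA-binding protein gene on the same strand. They have 404 exonic bases in common, and 7.30% of the windows of 75 bases in Cpne1 transcripts also occur in transcripts of other counted genes, so a small part of the Cpne1 count is uncertain. The annotation also has Gm28036, a coding gene on that strand with 3755 exonic bases of Cpne1, which is no row of the table used here. For Rbm12 the CPM (counts divided by the scaled library size and put on the same total for each library) was 28.0 ± 3.76 among wild types against 28.2 ± 2.43 among knockouts (SD, n = 5 each), a log2 fold change of 0.01 with an SE of 0.082. The microRNA gene Mir7080, inside Cpne7 on the same strand, had 0 counts in every library. For Cpne2, Cpne4, Cpne6, Cpne7 and Cpne9 the windows shared with other counted genes numbered 0.

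In the libraries labelled knockout, Fndc5 was lower but still counted. It was at 78.9, 69.2, 72.2, 80.3 and 76.1 CPM in wild-type mice 1 to 5 and at 51.0, 45.4, 53.9, 49.7 and 56.7 CPM in knockout mice 1 to 5. The groups did not overlap (log2 fold change -0.55, SE 0.057, edgeR adjusted p 0.000495). Markers of dentate granule neurons were abundant, with a summed level of 1875 to 2230 CPM for 10 of 10 genes, Prox1 among them, in wild types and 2056 to 2246 CPM in knockouts. Markers of CA3, the neighbouring pyramidal field, were also counted in every library, at 289 to 376 CPM and 278 to 337 CPM for 6 of 6 genes. In tissue such as this, fewer cells of a type and less RNA per cell cannot be told apart.

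Copine levels per length of transcript spanned a wide range in the dentate gyrus. Cpne6 was by far the most abundant, at 165 ± 9.54 CPM per kilobase of merged exons in wild types (SD, n = 5), and made up 67.6% of the family's level per kilobase. Cpne4 followed at 32.3 ± 0.797 and Cpne7 at 18.4 ± 5.50, which overlapped Cpne1 at 11.6 ± 0.796 over the mice. Cpne2 was at 7.95 ± 1.34 and Cpne9 at 4.30 ± 0.342 CPM per kilobase. Cpne3 (1.74 ± 0.193) and Cpne5 (1.54 ± 0.222) overlapped, and Cpne8 was lowest at 0.996 ± 0.198. The ranges of the other neighbours in this order did not overlap. In CPM, without division by length, Cpne6 ranked above 98.95% and Cpne8 above 21.8% of all genes tested.

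The order depends in part on the length used, because the annotated transcripts of a member differ in length. Per kilobase of the transcript with the longest coding sequence, Cpne6 was at 348 ± 20.2 in wild types and still first. Cpne7 (40.4 ± 12.1) then overlapped Cpne4 (44.9 ± 1.11), Cpne9 (12.2 ± 0.971) overlapped Cpne2 (10.9 ± 1.84), and Cpne5 (3.67 ± 0.528) lay above Cpne3.

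**Figure D1:**
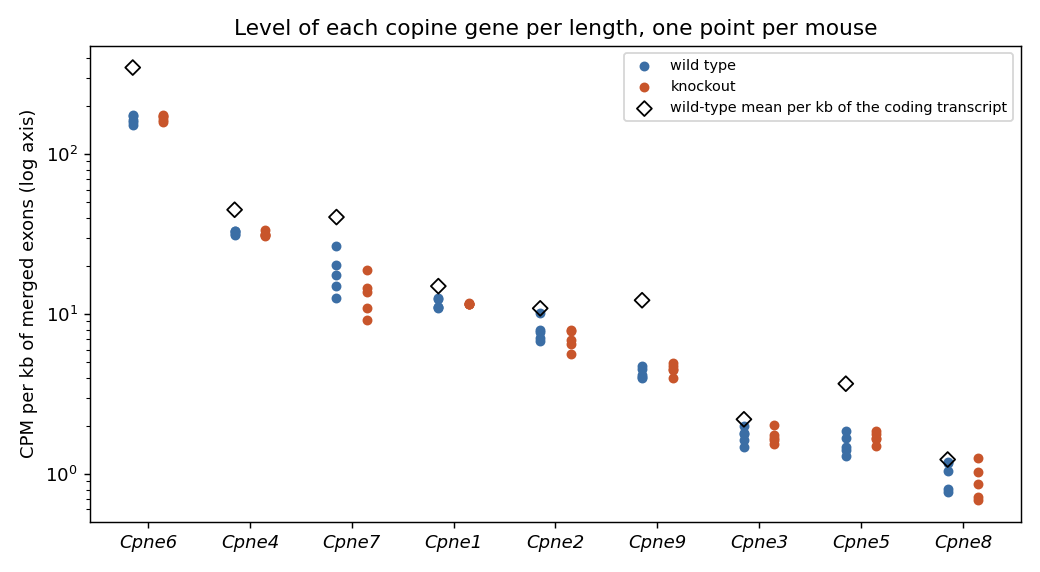
Level of each copine gene in CPM per kilobase of merged exons, on a log axis, with 1 point per mouse (blue wild type, orange knockout); open diamonds give the wild-type mean per kilobase of the transcript with the longest coding sequence. Cpne6, at 165 in wild types by merged exons, stands far above the other members, and Cpne7 has the widest spread among the upper ranks.

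The 3 members with close coding sequences that include Cpne6 were also the 3 with the highest levels. Cpne6 was at 750, 650, 677, 696 and 732 CPM in wild-type mice 1 to 5 and at 747, 678, 739, 698 and 725 CPM in knockout mice 1 to 5. All 5 knockouts lay inside the wild-type range. Knockout minus wild type, the log2 fold change was 0.03, with an SE of 0.042 and a 95% interval from -0.05 to 0.12. It was 0.06 without wild-type mouse 1 and 0.01 without wild-type mouse 2. The depth was high for this gene, with counting error of 0.664% of the level per wild-type library, against an SD between wild-type mice of 5.79%.

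Cpne4 was the steadiest member among wild types. It was at 182, 181, 173, 180 and 173 CPM in wild-type mice 1 to 5 and at 168, 174, 171, 172 and 184 CPM in knockout mice 1 to 5. Knockouts 1, 3 and 4 lay just below every wild type and knockout 5 just above. Its log2 fold change was -0.03, with an SE of 0.035 and a 95% interval from -0.11 to 0.04, and it was -0.05 without knockout mouse 5 and -0.02 without knockout mouse 1.

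Cpne7, a copine studied mainly in tooth dentin formation, had the widest spread between mice. It was at 141, 91.9, 66.0, 78.8 and 107 CPM in wild-type mice 1 to 5, a range of 2.14-fold within a genotype. In knockout mice 1 to 5 it was at 99.2, 72.0, 48.1, 57.3 and 76.7 CPM. The groups overlapped, with only knockouts 3 and 4 below every wild type. The mean was 96.9 ± 28.9 CPM among wild types against 70.6 ± 19.6 among knockouts (SD, n = 5 each). This was a log2 fold change of -0.45, with an SE of 0.19 and a 95% interval from -0.85 to -0.06. Its adjusted p by edgeR over all genes was 0.788. Without wild-type mouse 1, the highest library, the log2 fold change was -0.28.

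The spread of Cpne7 was large for its level. Its biological coefficient of variation, the part of the variation between mice of a genotype beyond counting error, was 20.2%. The median over 2022 genes within 0.5 of its mean log2 CPM was 4.88%, and Cpne7 ranked above 99.95% of them. Counting error was 1.80% of the level per wild-type library. Cpne2 (11.4%) ranked above 98.3% and Cpne8 (16.8%) above 96.7% of the genes at their own levels, while Cpne1 (5.02%) and Cpne4 (4.22%) ranked above 45.2% and 18.3%.

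**Figure D2:**
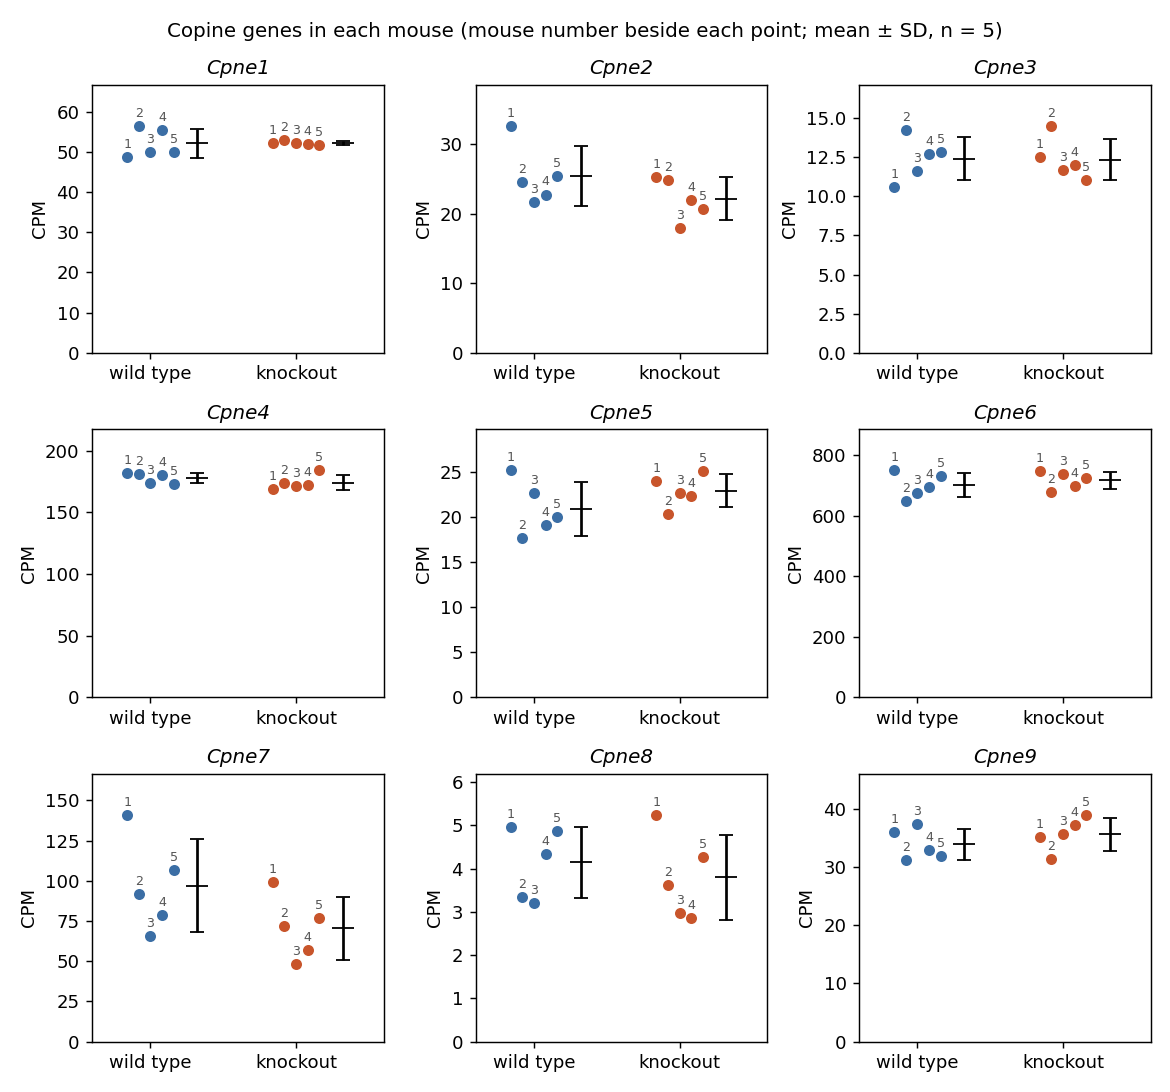
CPM of each copine gene in each mouse (points, with the mouse number beside each; axes start at 0), with mean ± SD over 5 mice per genotype as horizontal marks and bars. In Cpne7 both genotypes run in the order of mice 1, 5, 2, 4 and 3, from 141 to 66.0 CPM for wild types, and for knockouts from 99.2 to 48.1 CPM.

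Taken by mouse number, the Cpne7 values ran in step. From highest to lowest, mice 1, 5, 2, 4 and 3 made the order in both genotypes. The knockout was at 70.3%, 78.3%, 72.9%, 72.7% and 72.0% of the wild type with the same number, for numbers 1 to 5. The mean difference on the log2 CPM scale was -0.45, with an SD of 0.0584 over the 5 differences. The SD between mice was 0.419 in wild types and 0.401 in knockouts, and differences between unrelated mice with those SDs would have one of 0.579. The ratio of these, 0.101, compares with a median of 0.894 over all genes tested, and 3 of 14867 genes, Cpne7 included, were at or below it. This pattern is what the family was selected on. The labels name no litter, and no batch or day particular to a number. All library names carry the same date string, and the wild type and knockout of a number hold neighbouring places in their sample numbering. What a number stands for is not stated and is unknown.

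For the other 8 members that ratio ran from 0.546 (Cpne2) to 1.27 (Cpne4). Cpne2, Cpne6 (0.584), Cpne8 (0.608), Cpne5 (0.704) and Cpne3 (0.775) lay under the median of 0.894 over all genes. Cpne1 (0.919), Cpne9 (0.938) and Cpne4 lay above it. Of the 9, 1 was lower in the knockout for 5 of 5 numbers (Cpne7), as were 5.21% of all genes tested, and 0 were higher for 5 of 5. Either direction for 5 of 5 was found in 9.73% of all genes. Cpne2 was lower for 4 numbers, at 77.7%, 82.5%, 96.7% and 81.6% for numbers 1, 3, 4 and 5 and 101% for number 2. Cpne5 was higher for 4, at 115%, 100%, 117% and 125% for numbers 2 to 5 and 95.4% for number 1. Cpne8 ranged from 65.9% to 108% and Cpne4 from 92.7% to 107%. Mice with the same number were thus no closer than others in Cpne4, the copine with the smallest biological spread.

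**Figure D3:**
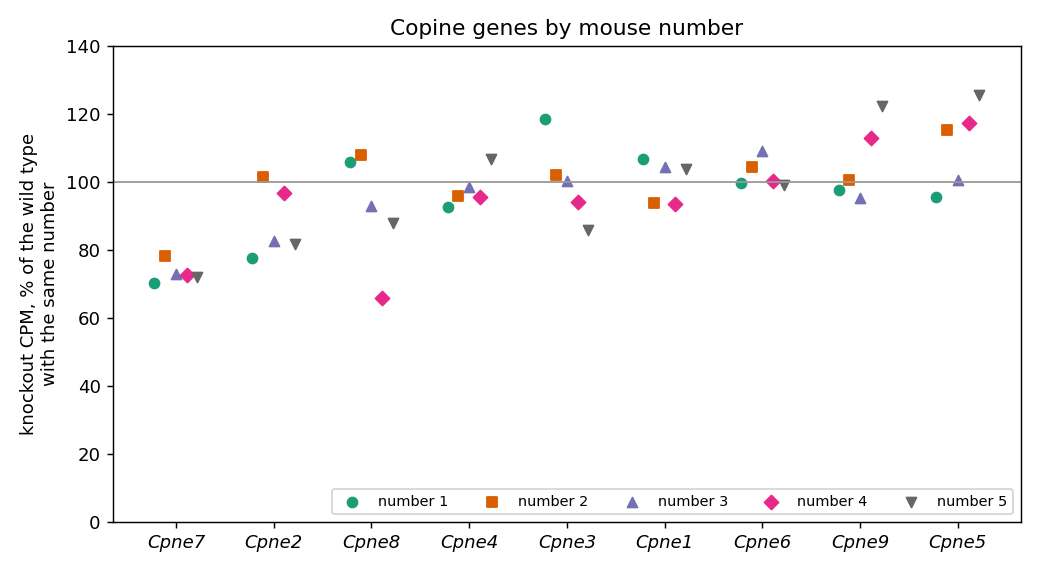
Knockout CPM as a percentage of the wild type with the same mouse number, for each copine gene (1 symbol per number; the line marks 100%). The 5 Cpne7 values lie between 70.3% and 78.3%, while those of Cpne8 run from 65.9% to 108%.

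Cpne2 and Cpne8 were the next most variable members. Cpne2 was at 32.7, 24.6, 21.7, 22.8 and 25.4 CPM in wild-type mice 1 to 5 and at 25.4, 24.9, 17.9, 22.0 and 20.7 CPM in knockout mice 1 to 5. Wild-type mouse 1 was the highest, and knockouts 3 and 5 lay below every wild type. Its log2 fold change of -0.20 had an SE of 0.11 and a 95% interval from -0.42 to 0.03, and was -0.09 without wild-type mouse 1. Cpne8, the scarcest member, was at 4.96, 3.35, 3.21, 4.35 and 4.87 CPM in wild-type mice 1 to 5, and knockouts 1 to 5 were at 5.24, 3.61, 2.98, 2.86 and 4.27 CPM. Knockouts 3 and 4 lay below every wild type and knockout 1 above. Its log2 fold change was -0.12 (SE 0.17), with counting error alone at 8.70% of the level per wild-type library. It was -0.27 without knockout mouse 1 and between -0.06 and -0.04 without knockout mouse 3 or 4 or wild-type mouse 1 or 5.

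Cpne5 and Cpne9, the closest pair by sequence, had somewhat higher means in knockouts. Cpne5 was at 25.2, 17.7, 22.7, 19.1 and 20.1 CPM in wild-type mice 1 to 5 and at 24.1, 20.4, 22.8, 22.4 and 25.2 CPM in knockout mice 1 to 5. Every knockout lay inside the wild-type range. Its log2 fold change of 0.13 had an SE of 0.085 and a 95% interval from -0.05 to 0.31, and was 0.20 without wild-type mouse 1 and 0.07 without wild-type mouse 2. Cpne9 ran from 31.2 to 37.4 CPM in wild types, with a median of 33.0, and from 31.3 to 39.0 CPM in knockouts, with a median of 35.7. Only knockout 5 lay outside the wild-type range. Its log2 fold change was 0.07 (SE 0.063), and 0.04 without knockout mouse 5 or wild-type mouse 2 and 0.11 without knockout mouse 2 or wild-type mouse 3.

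Cpne1, which is found in most tissues and has been tied to NF-kappaB signalling, and Cpne3, a partner of the receptor ErbB2 in cell migration, had nearly equal means in both genotypes. The mean of Cpne1 was 52.2 ± 3.59 CPM among wild types against 52.2 ± 0.458 among knockouts (SD, n = 5 each). The knockouts lay within 51.8 to 53.0 CPM and the wild types within 48.9 to 56.6 CPM. Cpne3 was at 12.4 ± 1.38 and 12.4 ± 1.33 CPM. The log2 fold changes were 0.00 with 95% intervals of -0.10 to 0.10 for Cpne1 and -0.19 to 0.18 for Cpne3, and their signs turned with the scaling or model and with single libraries left out.

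**Figure D4:**
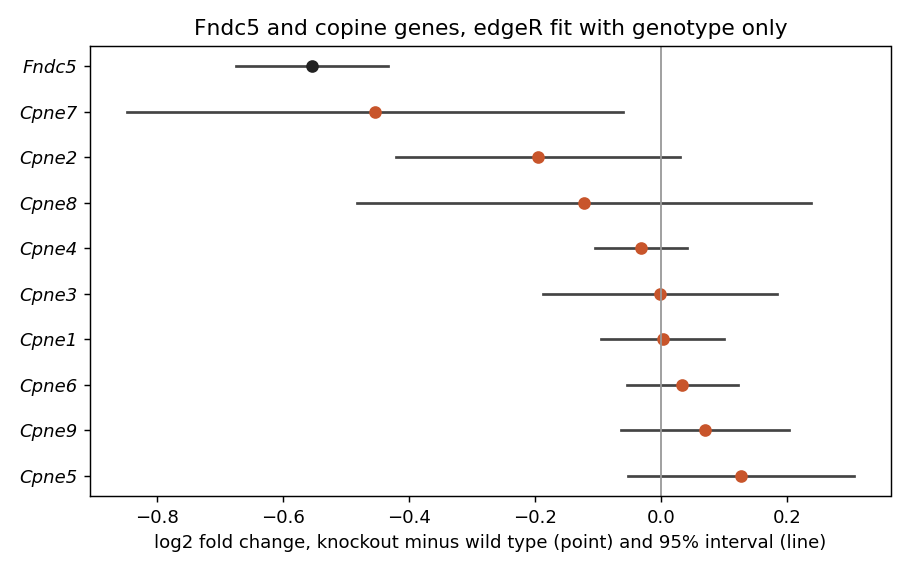
Log2 fold change, knockout minus wild type, of Fndc5 (black) and each copine gene (orange), with 95% intervals as lines, from the edgeR fit with genotype only. The Fndc5 interval ends at -0.43 and that of Cpne7 at -0.06, while the intervals of the other 8 copines cross 0. These intervals are not adjusted for the number of genes. The family was selected on Cpne7, whose adjusted p in this edgeR fit was 0.788.

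Read against the whole table, 0 of 9 copines passed an adjusted p of 0.05 in edgeR, where 0.00673% of all genes did (Fndc5 alone). At an unadjusted p under 0.05 there was 1 copine, Cpne7, against 6.29% of all genes (3.75% lower and 2.54% higher in knockouts). By DESeq2's Wald test 0 of 9 passed the adjusted threshold and 0.0202% of all genes did. With the mouse number as a block in edgeR, 1 of 9 passed, Cpne7, and 0.0538% of all genes. In 0 of 9 did the CPM of the genotypes not overlap, against 0.895% of all genes. The values were lower for 5 copines and higher for 4, with a median log2 fold change of 0.00, the same as over all genes tested. With upper-quartile scaling 4 were lower and 5 higher. Nothing can be read from these counts, since this contrast was in view when the family was chosen.

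Apart from genotype, several copines rose and fell together from mouse to mouse. After each genotype's mean was subtracted, Pearson's r over the 10 mice was 0.88 for Cpne7 with Cpne2 and 0.85 for Cpne7 with Cpne8 (Spearman's rho 0.85 and 0.90). Cpne5 and Cpne9 had an r of 0.81. Cpne3 ran against both, with r of -0.90 with Cpne5 and -0.90 with Cpne9, and Cpne1 had -0.80 with Cpne5. The other 30 of 36 pairs lay between these bounds. Without the 2 mice farthest from the median of the first gene of each pair, taken in numerical order, r was 0.77 for Cpne2 with Cpne7, 0.84 for Cpne7 with Cpne8, 0.85 for Cpne5 with Cpne9, -0.86 for Cpne3 with Cpne5, -0.88 for Cpne3 with Cpne9 and -0.68 for Cpne1 with Cpne5. These values describe 10 libraries in which all genes share depth, dissection and RNA quality, and no p is given. Cpne7 deviated almost alike in mice of the same number. Its r values, here and below, thus rest on fewer separate profiles than 10 mice. Leaving out the 2 mice farthest in Cpne7 did not take out both mice of any number, so it does not lift this limit.

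Cell type markers also varied from mouse to mouse alongside these members. Summed CA3 markers were at 376, 297, 289, 302 and 327 CPM in wild-type mice 1 to 5 and at 337, 278, 288, 285 and 314 CPM in knockout mice 1 to 5, so that mice 1 and 5 were highest in both genotypes, as for Cpne7. Over the 10 mice, r with the CA3 marker mean was 0.86 for Cpne7, 0.82 for Cpne8, 0.77 for Cpne6 and 0.67 for both Cpne2 and Cpne5. Without the 2 mice farthest from the median it was 0.79, 0.82 and 0.69 for Cpne7, Cpne8 and Cpne6, but 0.37 for Cpne2 and 0.41 for Cpne5, whose values thus rested in part on those mice. With the granule neuron marker mean it was -0.78 for Cpne7, -0.80 for Cpne6, -0.77 for Cpne2, -0.70 for Cpne8 and -0.71 for Cpne5 (-0.77, -0.64, -0.66, -0.66 and -0.18 without 2 mice). Summed granule markers were lowest in mouse 1 of both genotypes, at 1875 CPM for the wild type and 2056 for the knockout. Other lists ran as high with Cpne7, among them markers of oligodendrocyte precursors (r 0.87, for 4 genes) and annexins (0.82). The same held for the other members named. Cpne8 had an r of 0.87 with CA2 markers and 0.81 with choroid plexus markers, and Cpne2 had 0.92 with annexins. With endothelial and mural markers Cpne6 had -0.79 and Cpne5 -0.71. The CA3 and granule lists thus did not stand out from other lists. Between genotypes 4 of 6 CA3 markers were lower and 2 higher, with a median log2 fold change of -0.04, against -0.45 for Cpne7. Interneuron markers were lower for 10 of 12 genes (median -0.10), where 7325 of 14867 genes were lower. By edgeR 0 passed the adjusted threshold and 4 had an unadjusted p under 0.05, all lower, against 3.75% of all genes. These, named here after their values were seen, were on the log2 scale Gad1, which encodes a GABA-synthesizing enzyme (-0.08), the transcription factor gene Dlx1 (-0.28), the neuropeptide gene Vip (-0.30) and Dlx6os1 (-0.18). The list had summed levels of 747, 671, 625, 651 and 651 CPM in wild-type mice 1 to 5. In knockout mice 1 to 5 they were 664, 635, 619, 611 and 606 CPM. Wild-type mouse 1 stood far above the other wild types, which overlapped the knockouts, so the difference rests in part on that mouse. The r of this list with Cpne7 was 0.72 (0.82 without 2 mice). None of these lists had a gene at 0. The limit above on r with Cpne7 holds for these lists too. The part of other cells in the Cpne7 values was not tested.

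**Figure D5:**
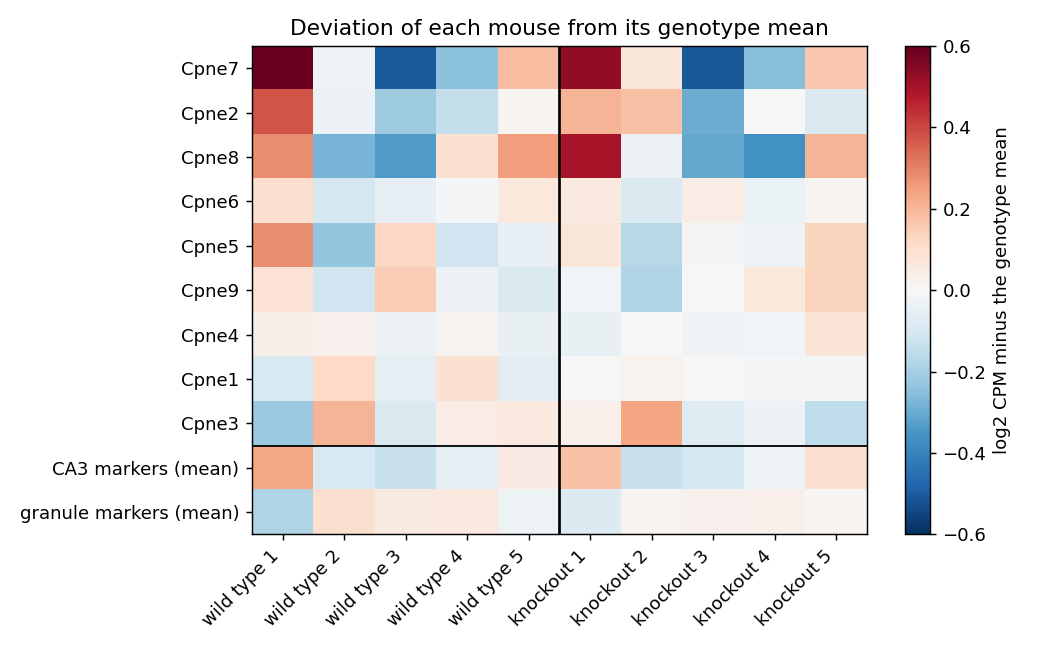
Log2 CPM minus the genotype mean for each copine gene and for the mean of the CA3 and granule neuron markers (rows) in each mouse (columns; the vertical line separates genotypes); red is above and blue below the mean. Cpne7 is 0.59 above its mean in wild-type mouse 1 and 0.53 above in knockout mouse 1, and 0.50 and 0.51 below in wild-type and knockout mouse 3.

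The gene most like Cpne7 over the mice, with genotype means removed, was Kit, the receptor tyrosine kinase for stem cell factor. It had an r of 0.98 (rho 0.98, 10 mice), with means of 62.9 CPM for wild types against 51.3 for knockouts. By edgeR its log2 fold change was -0.29 (SE 0.12) and its adjusted p 0.788. Nkd2, an inhibitor of Wnt signalling, and Glb1, the lysosomal beta-galactosidase, followed at 0.97 and 0.97, with log2 fold changes of -0.13 (SE 0.22) and 0.05 (SE 0.070). Both of these differences were smaller than their SE. Of the 45 named genes with an r of at least 0.9 with Cpne7, only these 3 are given. For Cpne6 the most alike were the ubiquitin-conjugating enzyme gene Ube2o, Bahd1 and Ggt7, each at 0.98, and 145 named genes reached an r of 0.9. For Cpne4 they were Fbxw17 (0.97), Mapk10, a neuronal JNK kinase (0.94), and Fam92a (0.90), and only 3 genes reached 0.9.

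For the scarcer members the highest values were 0.96 for Cpne2 (Slc9a4, Nxph4 and Abat, the enzyme that breaks down GABA) and 0.97 for Cpne8 (Lrrc8d), with Fto at 0.97 and Rnf26 at 0.94. Cpne5 had Gfod1 (0.97), Prune1 (0.95) and Lamb1 (0.94), and Cpne9 had Pfdn1 (0.92), Tspan31 (0.91) and Hacd1 (0.91). Cpne1 had AW822252 (0.95), Fbxo17 (0.93) and Rundc3b (0.93), and Cpne3 had Dclre1a (0.95), Tnpo1 (0.94) and Taf1 (0.94). These values rank genes over few mice and are given as a description. By Spearman's rho only 2 of the 3 most alike genes stayed the same for Cpne4 and Cpne5, and at most 1 for the other members.

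Genes of other calcium and membrane proteins gave no call. Of 39 genes with C2 domains, which include synaptotagmins, release factors and protein kinase C isoforms, 0 passed the adjusted threshold in edgeR and 2 had an unadjusted p under 0.05, both lower, where 3.75% of all genes were lower at that p. Syt2, a fast calcium sensor of transmitter release, had 9.90 ± 1.28 CPM against 8.45 ± 0.648 in knockouts (SD, n = 5 each), a log2 fold change of -0.23 with an SE of 0.091. Prkca, a protein kinase C gene, had 374 ± 31.2 CPM against 340 ± 27.6, a log2 fold change of -0.13 with an SE of 0.060. The differences of Rims2 and Syt4 were -0.08 and -0.12 on the log2 scale. The list was lower for 25 genes and higher for 14, where 7325 of 14867 genes were lower. Its median log2 fold change was -0.01, beside 0.00 over all genes.

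Among 28 genes of EF-hand proteins, which bind calcium through a different fold, 0 passed. At an unadjusted p under 0.05 in edgeR there was 1 gene, against 6.29% of all genes. That gene was Ppp3r1, the regulatory subunit of calcineurin, with a mean of 1049 CPM among wild types against 977.5 among knockouts (n = 5 each) and a log2 fold change of -0.10 with an SE of 0.047. Necab1 was at -0.17 and Necab2 at -0.18 on the log2 scale. In this list 19 genes were lower and 9 higher, and 16 and 12 with upper-quartile scaling (median -0.03, and -0.01 with that scaling). Over all genes, 7325 of 14867 were lower with TMM scaling. Of 12 annexins, another family that binds membranes with calcium, 8 passed the filter on low counts and 0 passed the threshold, with 0 at an unadjusted p under 0.05. They were split 4 to 4 (2 lower and 6 higher with upper-quartile scaling). Anxa9 was at 0.34 (SE 0.17), Anxa4 at -0.16, Anxa11 at 0.07 and Anxa2 at -0.14 on the log2 scale. Annexins Anxa1, Anxa8, Anxa10 and Anxa13 did not pass the filter.

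Among 12 genes of proteins reported to act with copines, 0 passed. In edgeR 0 had an unadjusted p under 0.05, against 6.29% of all genes. The GTPase gene Cdc42 had 237 ± 12.5 CPM against 225.0 ± 5.98 in knockouts (SD, n = 5 each), a log2 fold change of -0.08 with an SE of 0.039. Ube2m, which encodes a NEDD8-conjugating enzyme, was at 0.07, the BDNF receptor gene Ntrk2 at -0.07 and the NF-kappaB subunit gene Rela at 0.08 on the log2 scale. Of the list 8 genes were lower and 4 higher, and 6 and 6 with upper-quartile scaling. With TMM scaling 7325 of 14867 genes were lower.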

How the data were processed

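The authors deposited 1 table of raw read counts per gene symbol for the 10 libraries, with no normalization. Per the labels' protocols, a TruSeq stranded mRNA kit and 500 ng of RNA per mouse gave the libraries, read from one end over 75 bases. STAR 2.5.1b, Cufflinks 2.2.1 and mm10 are named in the submitters' processing notes, without role or order. For strand and for multiply mapped reads, the counting settings are not given in the sources used.

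Groups came from sample titles. As the labels name no litter, and no day that differs between mice, p-values measure the spread between these mice. The members and lists were chosen with earlier results of these data known. Counts were filtered with filterByExpr, scaled by TMM and compared with edgeR 4.0.16 (glmQLFit and glmQLFTest, genotype only) in R 4.3.3, with Benjamini-Hochberg adjustment over 14867 genes. CPM used TMM library sizes, and log2 CPM a prior count of 2. Libraries of a genotype differed by more than sampling noise (chi-square of at least 4.63 per degree of freedom), and each counted as 1 replicate. In simulated counts for this comparison (14805 genes), 64.2% of 67 changes of 1.25-fold and 89.6% of 67 of 1.5-fold were recovered, with 15 false calls. Each simulated gene had the spread typical of its level. Cpne7, Cpne2 and Cpne8 varied far more than that. Cpne5 (8.92% against a median of 5.98% at its level), Cpne9, Cpne3 and Cpne6 also varied more than the median. The simulation held 64 changes of 2-fold as well. With so many true changes the adjusted threshold is easier to pass than in these data, where 1 gene passed. The shares are therefore no measure of what could be found for the copines.

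Genes named are Fndc5, the copines, the 3 genes most alike to each (passing over predicted genes), genes overlapping a copine, and up to 4 members of each of 4 lists with the smallest p. A gene that this rule names is not reported here. Alternatives were DESeq2 1.42.0, upper-quartile and RLE scaling, other filters, limma-voom (limma 3.58.1) with and without quality weights, the mouse number as a block, and single libraries left out.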

Additional observations from a re-analysis of the deposited data

Results flagged for a closer look

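A mouse standing far from the other 4 of its genotype was looked for in 68 sets of 5 values (Fndc5 and each copine in each genotype, their differences by mouse number, and each gene list), and 4 sets had one, against about 3.4 by chance at 1 in 20. All 4 were marker lists, and 0 were copines. On the scale of list means of log2 CPM relative to the wild-type mean, interneuron markers peaked in wild-type mouse 1 (0.223, with the rest at -0.086 to -0.0054). This is also the library with the highest Cpne7 and Cpne2. Granule neuron markers were lowest among knockouts in mouse 1 (-0.0722, the others 0.0203 to 0.04), the knockout with the highest Cpne7. Astrocyte markers were lowest in knockout mouse 3 (-0.137, the others 0.0118 to 0.0586), the knockout with the lowest Cpne7 and Cpne2. Choroid plexus markers, of which 2 of 5 were tested, were lowest in wild-type mouse 2 (-0.294, the others 0.0308 to 0.154).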

How the results depend on the processing

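Fndc5 kept its call in all 18 alternatives, with log2 fold changes of -0.59 to -0.51 with single libraries left out. Over all genes the count was 1, 3 with DESeq2 and 8 with the mouse number as a replicate block, and between 1 and 3 when a library was dropped (3 on dropping wild-type mouse 1, 2 on dropping knockout mouse 2). Copines past the threshold numbered 0, and 1 with the block: Cpne7, at -0.45 (SE 0.035, adjusted p 8.02e-06). The family was selected on Cpne7 compared by number, so its calls with the block, here and below, support nothing. The block also called Kit (adjusted p 0.0181), the gene most like Cpne7. Kit was named for that likeness, so its call is no separate support. Same-numbered mice correlated at 0.209, 0.204, 0.108, 0.00901 and 0.0282 in their deviations over all genes, 3 of 5 above 0.1. The bar for taking pairs was 0.1, which not every number passed, and the labels give no litter or day particular to a number. The mice were therefore not treated as pairs. Yet 6 of 10 mice correlated best with their own number among the 5 mice of the other genotype, a hint from the data and not the design. With the block and single pairs left out, added after seeing the data, the count over all genes was 5, 5, 3, 6 and 52 without pairs 1 to 5, and 1 copine, Cpne7, passed each time. All of these counts were above the 1 found without the block, but only the 52 without pair 5 was above the 8 with all pairs. Why the counts differed was not tested. Of 162 alternatives over the copine fold changes, 148 kept direction and side of the threshold and 13 turned sign. Cpne1 was at -0.0023 with quality weights and -0.021 to 0.032 with single libraries left out, and Cpne3 at 0.0083 with upper-quartile scaling, 0.0069 with limma-voom and -0.066 to 0.052. Apart from the block, the lowest adjusted p for Cpne7 was 0.587. Medians of the 4 lists moved by less than the spread between mice in all their alternatives. For Cpne8, counting error was 8.70% of the level and the biological variation 16.8%.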
